A study of Saccharomyces cerevisiae with 11 samples.

Results

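The retentostat on day 9 was compared with the retentostat on day 2, in baker's yeast, Saccharomyces cerevisiae, without its RIM15 gene. Each day was measured on 2 one-colour Affymetrix yeast arrays, 1 from each of 2 independent cultures, so that 4 of the 11 arrays of the series make up the comparison. The 2 arrays of a culture were paired, because the labels give the same replicate number and the same culture code on both days. All 5577 genes with a signal above the floor on at least 1 array entered the comparison, each through 1 probe set annotated to exactly that gene. They come from the 6504 of 9335 probe sets on the array that the platform annotation gives to 1 gene.

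All groups carried the same rim15 deletion (strain IMK313) in the laboratory background CEN.PK113-7D, and grew without oxygen at pH 5.0 and 30 °C on synthetic medium with 50 g of glucose per l. The 3 chemostat cultures grew at a dilution rate of 0.025 per h. The retentostats were started from such chemostats at the same rate by drawing the outflow through a filter, and were sampled on days 2, 9, 16 and 20. Every difference therefore describes the mutant over time, with no wild type beside it in the arrays analysed here. The series asks what loss of RIM15 does to yeast under severe calorie restriction.

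A chemostat loses cells with its outflow, and the cells that stay divide at the rate of dilution. A retentostat keeps every cell while glucose enters at a fixed rate, so that the glucose left for each cell falls and division slows towards none. Yeast in that state is known to lower the making of ribosomes, amino acids and cell wall and to raise stress protection and stores of glycogen and trehalose. Rim15 is a protein kinase held inactive by the nutrient signalling kinases, and in the wild type it is known to help set up this resting state.

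The array signals had been scaled to 1 trimmed mean, equal within 0.0311%, and their median ran from 85.3 to 122. Signals of 12 or less, which took 15.8% to 22.9% of the probe sets on an array, were set to 12 before log2 was taken. The RIM15 probe set (YFL033C) gave signals of 0.4 to 13.9 and lay at or under 12 on 10 of the 11 arrays. Its place within the gene was not known, so it checks the deletion only if it lies in the deleted stretch. The labelled anaerobic growth was checked on 6 genes. ANB1, which yeast uses without oxygen, gave signals of 2230 and 4358 on day 2 and of 2794 and 3467 on day 9. DAN1, an anaerobic cell-wall protein, gave 4255 and 4140 and then 2757 and 1265. AAC3, the anaerobic ADP/ATP carrier, was dim, with 13.4 and 81.3 and then 26.6 and 48.8. COX5B, HEM13 and AUS1 gave 199 to 557, 401 to 769 and 722 to 1611 on these 4 arrays. The a-specific pheromone gene MFA1 gave signals of 7811 to 9859 on these 4 arrays, and CEN.PK113-7D is of mating type a.

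Both day 9 arrays stood apart from the day 2 arrays in a way of their own. On the day 9 array of culture 2 the control probe sets of actin differed by end, the 3' one 27.0 times as bright as the 5' one. The ratio was 1.17 on the day 9 array of culture 1 and 1.49 and 1.94 on the day 2 arrays. It was also high on the later arrays of culture 2, at 217 on day 16 and 31.8 on day 20, which enter the fit and the later signals given below. The second control, SPT15, had a ratio of 4.18 on the day 9 array of culture 2, against 2.76 on its day 2 array and 3.45 on chemostat 1, and of 24.7 and 4.90 on its arrays of days 16 and 20. The day 9 array of culture 1 stood apart most along the numbering of the probe sets. Its 1816 genes with probe sets numbered from 4000 to under 6500 lay 0.41 above their mean over all arrays on the log2 scale (median), and its 3610 genes numbered 6500 or more lay 0.25 below theirs. These classes also differed on other arrays, by less. The same medians were -0.21 and -0.03 on the day 2 array of culture 1, 0.27 and -0.01 on its day 16 array and -0.33 and -0.07 on chemostat 2. The median change from day 2 to day 9 was 0.61 in the first class and -0.20 in the second in culture 1, against 0.11 and 0.24 in culture 2.

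**Figure D1:**
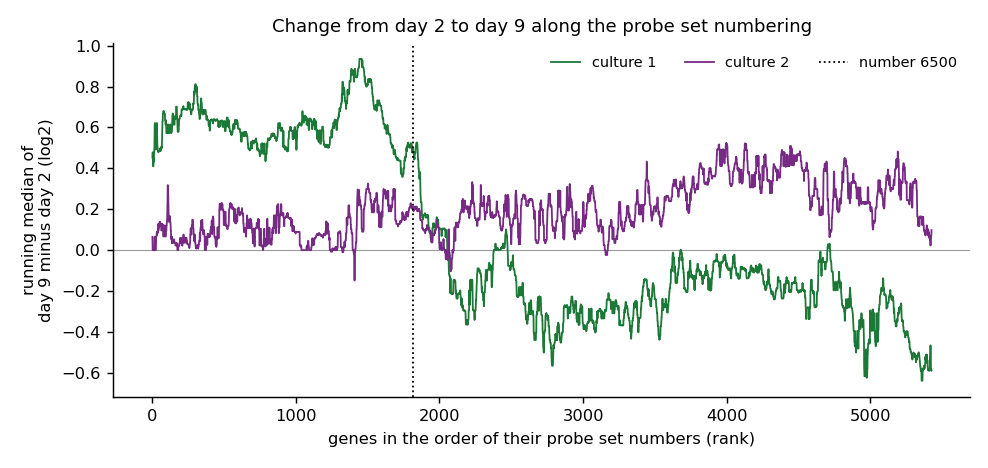
Running median of the log2 difference, day 9 minus day 2, over genes placed in the order of their probe set numbers (50 neighbours on each side, numbers from 4000 up). The culture 1 line lies above 0.3 before the number 6500 and mostly below 0 after it, and the culture 2 line lies mostly between 0 and 0.5 throughout.

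The changes of genes next to each other in this order correlated at 0.54 in culture 1 and 0.23 in culture 2, as a description across genes that share an array. Of the 41 genes called higher on day 9, 23 lay in the class from 4000 to under 6500, which is 1.27% of that class, beside 6 genes called lower. In the class from 6500 up, 9 genes were called higher and 41 lower, 0.249% and 1.14% of the class. Among the 151 genes numbered under 4000, 9 were called higher and 1 lower, 5.96% and 0.662% of that class. Results are therefore given also with each array's running median along the numbering removed, a setting added after this pattern was seen. The running median was taken over numbers from 4000 up, so the signals of the 151 genes numbered under 4000 were left as they were. That setting raised the correlation of the cultures' changes across genes from 0.16 to 0.24. The part that the numbering and the 3'/5' ratio have in any single result was not tested beyond the values given.

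Of the 12 furthest falls from day 2 to day 9, among calls with a mean signal of at least 50 on the higher day and no overlap, 5 were of the iron uptake genes FIT2, FIT3, FET3, FTR1 and ENB1. The others were the transcription factor gene SFG1, the cell surface genes TOS6 and SVS1, the amino acid genes SAM4 and HIS3, the phospholipase gene PLB2 and YMR317W. The 12 furthest rises, by the same rule, held 3 small RNAs of the nucleus and nucleolus (SNR46, SNR14 and SNR5), 3 tRNAs (YNCB0015W, SUF1 and SUF6) and the mitochondrial genes SCEI and ATP6. They also held the pheromone gene MF(ALPHA)1, which an a cell does not normally use, the membrane stress gene HSP30, the autophagy receptor gene ATG45 and the exporter gene TPO2. With limma over all 11 arrays and a term for the retentostat culture, 89 of 5577 genes passed an adjusted p of 0.05, which is 1.60%. Of these, 41 were higher on day 9 (0.735% of the genes tested) and 48 were lower (0.861%). Counts of calls in a list are to be set against these shares throughout. Differences of the genes called higher ran from 1.05 to 2.55 on the log2 scale, and those of the genes called lower from -3.98 to -1.05. All 89 moved the same way in both cultures, 88 had no overlap between the day 2 and the day 9 arrays, and 72 moved at least 2-fold in each culture. Such agreement is largely built into the choice of the 89, since a gene passes only with a difference that is large beside its spread. Groups without overlap were common, with 2172 genes or 38.9% of all.

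**Figure D2:**
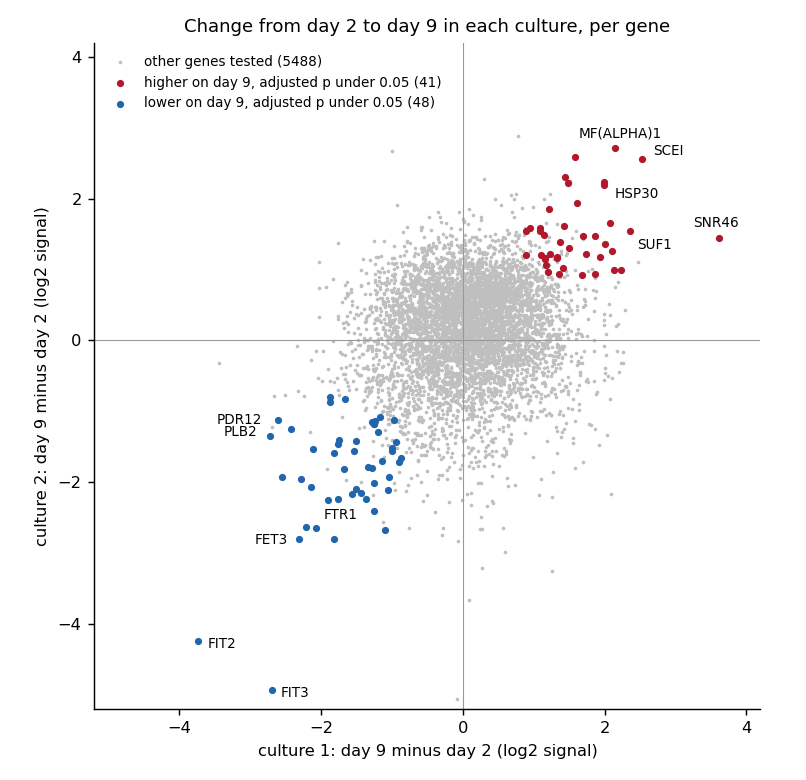
Log2 difference of every gene from day 2 to day 9 in culture 1 (horizontal) and in culture 2 (vertical), with the 41 genes called higher in red and the 48 called lower in blue. FIT2 and FIT3 lie lowest among the called genes, and the grey cloud of the other 5488 genes shows little slope.

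Over the whole set of genes the cultures had little in common. In all, 2984 genes changed in the same direction in both cultures and 2459 in opposite directions. Higher in both were 1945 genes (34.9%) and lower in both 1039 (18.6%), the shares against which such counts of a list are set below. The median change was 0.08 in culture 1, 0.19 in culture 2 and 0.13 in the fit, so that the values of gene lists below are read against 0.13. At least 2-fold rises in both cultures were seen for 62 genes (1.11%) and at least 2-fold falls for 71 (1.27%). Another 47 genes moved at least 2-fold in opposite directions, 32 of them up in culture 1 and down in culture 2. The arrays of day 2 correlated at 0.959 across genes and those of day 9 at 0.886, and the median gene had an SD of 0.24 on day 2 and 0.39 on day 9 (log2, n = 2).

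The number of calls rested on the pairing and on single arrays. Without the culture term 9 genes passed: FIT2, SAM4, ENB1, FET3 and REE1 lower and MF(ALPHA)1, ATG45, HSP30 and TPO2 higher. Leaving out 1 day 9 array gave 3 calls (without culture 1) or 7 (without culture 2), of which 3 and 5 were among the 89. Leaving out 1 day 2 array gave 36 or 4, of which 20 and 4 were among the 89. Leaving out 1 chemostat gave 29, 25 or 21 calls and either day 20 array 20, all among the 89, and either day 16 array gave 46, of which 40 were. FIT2 kept its call in all 11 of these fits and SAM4 in 10, while 39 of the 89 genes kept theirs in none. The fit is the same whichever day 16 array is left out, and likewise for day 20. Tallies out of these 11 fits therefore count such results more than once. The split between rises and falls depended on scaling. It was 41 to 48 as reported, 18 to 45 with quantile scaling and 16 to 71 with scaling to a common median. With a floor of 50 it was 108 to 67, with no filter on low values 145 to 67, and with the running median along the numbering removed 45 to 90. Of the 89 calls, 24 rises and 44 falls kept their call in that last setting. For genes numbered under 4000, among them SCEI, ATP6, SUF1, SUF6, YNCB0015W and PAU10, it is no check, because it left their signals unchanged.

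**Figure D3:**
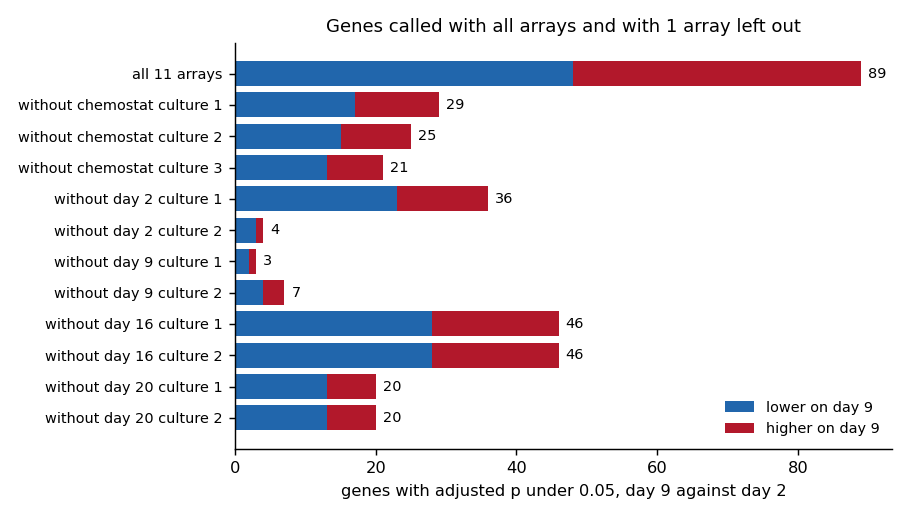
Number of genes with an adjusted p under 0.05 for day 9 against day 2 (limma, culture term), with all 11 arrays and with each array left out in turn; blue bars are genes lower on day 9 and red bars genes higher. The count is 89 with all arrays and 3 to 46 with 1 array left out.

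The iron uptake genes FIT2 and FIT3 gave the furthest falls. In yeast, low iron switches on the Aft1 regulon, which codes for cell-wall mannoproteins that hold iron-carrying siderophores, reductases, a high-affinity permease and siderophore transporters. Of 32 genes of this list, 6 fell and none rose, against 0.861% and 0.735% of all genes, and their median difference was -0.55, against 0.13. FIT2 (YOR382W), one of the mannoproteins, had signals of 4466 and 3962 on day 2 and of 336 and 210 on day 9, in cultures 1 and 2. Both day 9 signals lay far below both day 2 signals, with a fitted difference of -3.98 ± 0.29 (SE; adjusted p = 5.33e-04, limma). FIT3 (YOR383C), a second mannoprotein, had 7703 and 5744 and then 1189 and 188. Its fall was -3.81 ± 0.49 (adjusted p = 0.0116), and the cultures differed, with -2.70 in culture 1 and -4.93 in culture 2, the widest such gap among the called genes.

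FET3 (YMR058W), the copper-bearing ferroxidase that hands iron to the permease, gave signals of 620 and 606 on day 2 and of 133 and 97.3 on day 9. FTR1 (YER145C), that permease, gave 1262 and 777 and then 301 and 124. ENB1 (YOL158C), a transporter of the siderophore enterobactin, gave 953 and 477 and then 162 and 125. The 3 genes fell by 2.43, 2.36 and 2.24 on the log2 scale (SE 0.29, 0.27 and 0.28; adjusted p = 0.00870, 0.00870 and 0.00929), with no overlap between days. FRE5 (YOR384W), of the ferric reductase family, gave 34.2 and 51.3 on day 2 and was under the floor on both day 9 arrays (adjusted p = 0.0334). Of these 6, FIT2, FIT3 and FRE5 lie next to each other on chromosome XV, and each was measured with a probe set of its own.

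The rest of the iron list did not pass the test. TIS11 (YLR136C), which destabilises messages of iron-using proteins, gave 505 and 550 and then 209 and 121 (difference -1.73, adjusted p = 0.0607). HMX1 (YLR205C), heme oxygenase, gave 162 and 104 and then 58.6 and 44.0 (-1.35, adjusted p = 0.0522, and 0.0358 with the numbering trend removed). SIT1 (YEL065W), another siderophore transporter, split by culture, from 212 to 224 in culture 1 and from 723 to 57.2 in culture 2. FTH1, the vacuolar iron permease subunit, differed by -0.02 and FRE1, the main plasma membrane reductase, by -0.08. In each culture the list's median lay below that of all genes, at -0.57 and -0.73.

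Of 72 amino acid biosynthesis genes outside the sulfur pathway, 7 fell and 1 rose, against 0.861% and 0.735% of all genes. The list's median was -0.55, against 0.13, and 48 of the 72 were lower in both cultures, against 18.6% of all genes. HIS3 (YOR202W), of histidine synthesis, had signals of 262 and 272 on day 2 and of 59.3 and 64.7 on day 9, a difference of -2.11 ± 0.38 (adjusted p = 0.0334). Its second probe set, with signals of at most 74, differed by -1.30. BAT2 (YJR148W), the cytosolic branched-chain aminotransferase, had 742 and 993 and then 250 and 220 (-1.87 ± 0.35, adjusted p = 0.0386). HIS7 (YBR248C) and ARO4 (YBR249C), of histidine and aromatic amino acid synthesis, are neighbours on chromosome II and fell by 1.80 and 1.64 (adjusted p = 0.0450 and 0.0402). Signals of HIS7 were 140 and 280 on day 2 and 51.4 and 63.1 on day 9. In these 4 genes no day 9 array reached a day 2 array.

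The other falls on this list were smaller. HIS1 (YER055C), the first enzyme of histidine synthesis, fell by 1.05, ILV2 (YMR108W), acetolactate synthase, by 1.19 and ARG1 (YOL058W), argininosuccinate synthase, by 1.18. The exception was ARO9 (YHR137W), an aminotransferase also used in the breakdown of aromatic amino acids. It rose from 13.4 and 26.2 to 62.8 and 52.0 (1.61 ± 0.31, adjusted p = 0.0418). With the numbering trend removed 11 genes of the list fell and 1 rose, among them ARG4 at an adjusted p of 0.0118, which had missed the threshold at 0.0628. ARG1 lost its call in that setting and with quantile scaling. The calls on HIS7 lost their side of the threshold in each of the 11 fits with 1 array left out, and those on HIS3 and BAT2 held in 2.

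Of the sterol and anaerobic cell-wall genes, 4 passed, all lower. Ergosterol synthesis needs oxygen, and yeast without oxygen instead takes up sterol and remodels its wall with seripauperins and the DAN and TIR mannoproteins. Of 32 ergosterol and sterol uptake genes 2 fell and none rose (median -0.47), against 0.861% and 0.735% of all genes. In this list 18 were lower in both cultures, against 18.6% of all genes. ERG10 (YPL028W), which makes acetoacetyl-CoA at the start of the pathway, had 1148 and 1531 on day 2 and 360 and 435 on day 9 (-1.74 ± 0.28, adjusted p = 0.0233). ARE1 (YCR048W), a sterol acyltransferase, had 610 and 437 and then 297 and 115 (-1.49 ± 0.28, adjusted p = 0.0402). Both genes were lower on either day 9 array than on either day 2 array.

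Of 17 seripauperin and DAN/TIR genes, 2 fell, against 0.861% of all genes, PAU23 (YLR037C) by 1.61 and PAU10 (YDR542W) by 1.22. In this list 15 were lower in both cultures, against 18.6% of all genes (median -0.98). PAU23 went from 945 and 911 to 279 and 331 and PAU10 from 769 and 934 to 323 and 412. Their probe sets are marked as shared within a gene family, so that the members cannot be told apart. The list's median was -0.70 in culture 1 and -1.18 in culture 2. With the numbering trend removed 7 of the 17 were called, all lower, and 4 of the 32 sterol genes. TIP1 was the only member with a difference above 0, at 0.17.

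**Figure D4:**
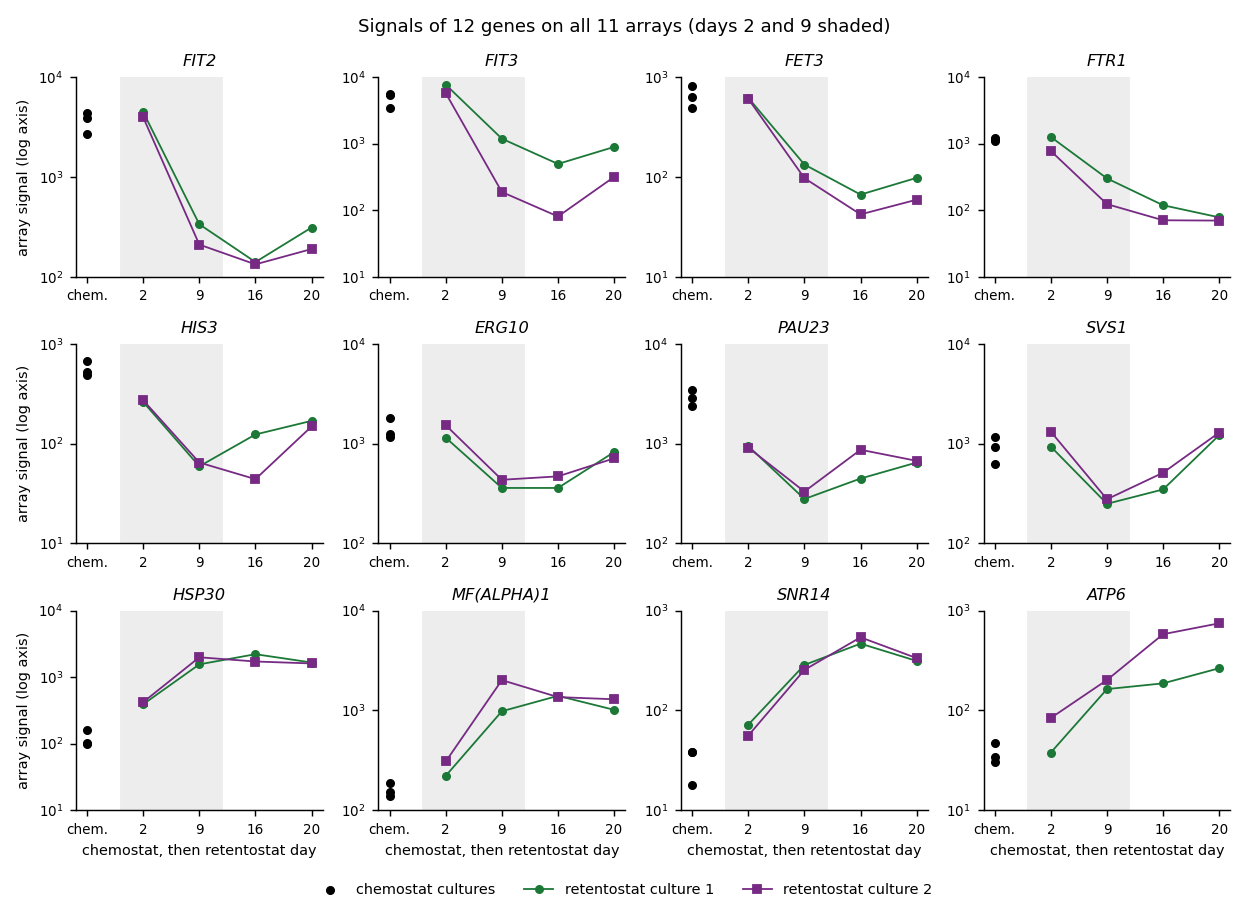
Array signals (log axis, with a range of its own in each panel) of 12 genes in the 3 chemostat cultures and in the 2 retentostat cultures on days 2, 9, 16 and 20, with days 2 and 9 shaded. The 8 genes in the upper rows are lower on both day 9 arrays than on both day 2 arrays, and the 4 in the bottom row are higher.

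Further falls were in genes of the cell surface and its regulators. SFG1 (YOR315W), a transcription factor of superficial filamentous growth, had signals of 81.2 and 91.4 on day 2 and of 16.3 and 13.1 on day 9 (-2.56 ± 0.44, adjusted p = 0.0301). TOS6 (YNL300W), a cell-wall anchored protein, went from 753 and 371 to 213 and 53.0 (-2.32 ± 0.38, adjusted p = 0.0266). SVS1 (YPL163C), a cell wall and vacuolar protein, went from 933 and 1318 to 250 and 278 (-2.07 ± 0.30, adjusted p = 0.0174). All 3 were lower on day 9 without overlap. CIS3 (YJL158C), a wall protein of the PIR family, fell by 1.42 from 2030 and 2074 to 923 and 640, the only call among 19 genes of cell separation and the PIR family (median -0.43). Its call did not hold with the numbering trend removed (adjusted p = 0.0575). FLO11 (YIR019C), the adhesin of filamentous growth, gave 2443 and 3068 and then 1450 and 488 (-1.70, adjusted p = 0.0593, and 0.0142 with the numbering trend removed).

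Some of these falls were not kept later. SVS1 stood at 1218 and 1293 on day 20, in the range of day 2, and CIS3 at 2293 and 2147, above it. FIT2, by contrast, stayed at 133 to 312 on days 16 and 20, FET3 at 42.2 to 98.0 and FTR1 at 69.9 to 119. The difference of day 20 from day 9 was not tested.

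The remaining falls by the rule on size were of lipid, methionine and unknown genes. SAM4 (YPL273W), which recycles methionine from S-adenosylmethionine, had 63.5 and 46.7 on day 2 and 13.1 and 2.7 on day 9, the last of these under the floor (-2.12 ± 0.22, adjusted p = 0.00768). PLB2 (YMR006C), a phospholipase B, had 591 and 545 and then 89.8 and 214 (-2.03 ± 0.31, adjusted p = 0.0224). YMR317W, a gene with no known role, had 321 and 459 and then 94.8 and 97.2 (-2.00 ± 0.31, adjusted p = 0.0233). PDR12 (YPL058C), the pump for weak acids, fell by 1.87 with a wide gap between cultures, -2.61 in culture 1 and -1.13 in culture 2.

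MF(ALPHA)1 (YPL187W) showed a clear rise. It codes for the alpha-factor pheromone and is known to be silent in a cells, which make a-factor instead. Its signals were 221 and 307 on day 2 and 979 and 2008 on day 9 (2.43 ± 0.29, adjusted p = 0.00870), and they stayed at 1012 to 1398 on days 16 and 20. The chemostats gave 138 to 189. MF(ALPHA)2 (YGL089C), the minor alpha-factor gene, had 21.6 and under 12 on day 2 and 46.1 and 35.1 on day 9 (1.32 ± 0.24, adjusted p = 0.0381). That call held in none of the 11 fits with 1 array left out. It was also lost with the numbering trend removed (0.0902), with quantile scaling and with median scaling.

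These were the calls, both higher, among 5 alpha-specific genes (median 0.93), against 0.735% of all genes called higher. STE3 (YKL178C), the a-factor receptor, gave 134 and 126 and then 193 and 321 (0.93, adjusted p = 0.144), and SAG1, the alpha-agglutinin, gave 182 and 133 and then 147 and 300, with overlap. Among 7 a-specific genes none passed (median 0.40), and AGA2 (YGL032C), the binding subunit of a-agglutinin, came closest, with 885 and 1013 and then 2005 and 1710 (0.97, adjusted p = 0.0593). AGA1 (YNR044W), which anchors that subunit to the wall, rose from 958 and 734 to 2120 and 2067 (1.32 ± 0.23, adjusted p = 0.0334). It was the only call among 28 genes of the pheromone pathway (median 0.17), and 3 were called with the numbering trend removed, AGA1, FIG1 and PRM3. FUS1, a standard target of the pathway, differed by 0.29.

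HSP30 (YCR021C) led the stress genes. It codes for a plasma membrane protein that restrains the proton pump Pma1 under stress. Its signals were 390 and 420 on day 2 and 1552 and 1983 on day 9 (2.12 ± 0.29, adjusted p = 0.0163), after 99.0 to 159 in the chemostats. CYC7 (YEL039C), the second form of cytochrome c, rose from 349 and 395 to 898 and 1031 (1.37 ± 0.27, adjusted p = 0.0418). FMP16 (YDR070C), a mitochondrial protein of unknown role, rose from 183 and 173 to 409 and 382 (1.15 ± 0.23, adjusted p = 0.0464). RGI2 (YIL057C), known for its induction in respiratory growth, fell from 880 and 1042 to 362 and 300 (-1.54 ± 0.26, adjusted p = 0.0268). HSP30 kept its call in 7 of the 11 fits with 1 array left out, and CYC7, FMP16 and RGI2 kept theirs in 0. With the numbering trend removed CYC7 and FMP16 lost their calls (adjusted p = 0.0887 and 0.0691). On day 20 CYC7 stood at 318 and 351 and FMP16 at 161 and 142, under their day 2 signals in each culture. HSP30 stood at 1656 and 1602 on that day and RGI2 at 222 and 334.

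The list of general stress genes, chosen as of the Msn2/4 type, did not move as 1 block. Whether each member depends on Msn2/4 was not tested. Of its 55 genes 3 rose (HSP30, CYC7 and FMP16) and 1 fell (RGI2), against 0.735% and 0.861% of all genes. The list's median was 0.23 against 0.13 for all genes. With the numbering trend removed 1 of the list rose and 3 fell, against 45 and 90 of all 5577 genes. HSP12, often used as a stress marker, gave 2104 and 1062 and then 3241 and 798, up in culture 1 and down in culture 2. HSP26 differed by 0.40 and CTT1, catalase T, by 0.43 (adjusted p = 0.463 and 0.404). None of 28 heat-shock chaperone genes passed (median 0.10) and none of 8 trehalose genes (0.13).

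Of 19 glycogen genes 1 rose and none fell, against 0.735% and 0.861% of all genes. The list's median was 0.38, against 0.13, and 9 of the 19 were higher in both cultures, against 34.9% of all genes. GIP2 (YER054C), which brings the phosphatase Glc7 to glycogen synthase, rose from 120 and 87.1 to 223 and 253 (1.22 ± 0.25, adjusted p = 0.0469), a call that did not hold with the numbering trend removed (0.132). In that setting PGM1, a phosphoglucomutase, was the only call of the list, with a difference of -1.23 (adjusted p = 0.0422, against 0.0753 as reported). GLC3, the branching enzyme, gave 1690 and 1794 and then 3252 and 3471 (0.95, adjusted p = 0.0630). The synthase genes GSY1 and GSY2 differed by 0.34 and 0.04, with opposite signs in the cultures. ATG45 (YIL024C), described in yeast as the receptor that brings glycogen into autophagy, rose from 219 and 306 to 927 and 960 (1.87 ± 0.23, adjusted p = 0.00929). None of 33 other autophagy genes passed (median 0.19). ATG1, the kinase that starts autophagy, gave 132 and 136 and then 291 and 279 (1.09, adjusted p = 0.0698).

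Of the transporters, TPO2 (YGR138C), a polyamine exporter, rose from 112 and 137 to 407 and 380 (1.67 ± 0.25, adjusted p = 0.0174). HXT4 (YHR092C), a glucose transporter, rose from 30.6 and 27.1 to 77.0 and 61.2 (1.25 ± 0.23, adjusted p = 0.0334), the only call among 19 hexose transporters and sensors (median 0.22). Its call did not hold with the numbering trend removed (0.0988).

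Among small RNAs of the nucleus and nucleolus, 4 passed, all higher. These RNAs guide the chemical changes of ribosomal RNA or form the spliceosome. Of 57 genes 4 rose and none fell, against 0.735% and 0.861% of all genes. The median was 0.63, and 33 were higher in both cultures with none lower in both, against 34.9% and 18.6% of all genes. SNR14 (YNCE0011C), the U4 RNA of the spliceosome, had 71.9 and 55.9 on day 2 and 285 and 254 on day 9 (2.09 ± 0.36, adjusted p = 0.0331). SNR5 (YNCO0028W), a guide for pseudouridine, had 75.6 and 70.5 and then 210 and 327 (1.85 ± 0.29, adjusted p = 0.0233). SNR46 (YNCG0024W), of the same class, had 11.3, which is under the floor, and 35.0 on day 2 and 147 and 95.2 on day 9 (2.53 ± 0.44, adjusted p = 0.0331). Its cultures differed, with 3.61 in culture 1 and 1.44 in culture 2, and with a floor of 50 its difference was 1.24. SNR71 rose by 1.58 from signals near the floor, a call that did not hold with the numbering trend removed (0.0739).

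The tRNA genes gave 6 of the 41 rises from 88 genes tested, against 0.735% of all genes (median 0.35). SUF1 (YNCO0001C) went from 51.2 and 49.6 to 263 and 145 (1.95 ± 0.26, adjusted p = 0.0157) and SUF6 (YNCN0002C) from 71.1 and 42.0 to 218 and 161 (1.78 ± 0.30, adjusted p = 0.0301). The tRNA YNCB0015W went from 14.2 and under 12 to 42.4 and 71.8, and 3 more tRNA genes were under the floor on both day 2 arrays. All 6 were measured with family probe sets, which can bind several tRNAs.

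Mitochondrially encoded genes had the highest median of all lists, 1.31 over 8 genes, with 1 call, higher, against 0.735% of all genes. ATP6 (Q0085), a subunit of ATP synthase, rose from 37.8 and 83.9 to 163 and 202 (1.69 ± 0.34, adjusted p = 0.0464). That call held in none of the 11 fits with 1 array left out, and was lost with quantile scaling and with median scaling. COB, COX2 and COX3, of the respiratory chain, differed by 1.65, 1.49 and 1.88, at least 2-fold in each culture, with adjusted p of 0.0593, 0.0753 and 0.0753. COX1 gave 2055 and 1424 and then 6809 and 2091. ATP8 and VAR1 were at or near the floor on all 4 arrays. SCEI (Q0160), the endonuclease gene inside the intron of the large mitochondrial ribosomal RNA, had the largest rise of all, from 26.0 and 53.5 to 150 and 316 (2.55 ± 0.41, adjusted p = 0.0233). The 43 nuclear genes of the respiratory chain and ATP synthase had a median of 0.20 and no call.

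Per the labels, mRNA was prepared from total RNA before labelling. The snoRNAs, tRNAs and mitochondrial messages of yeast do not normally carry the long poly(A) tails of nuclear mRNA. How much of each entered the labelled sample was not tested. Rises were also more frequent among short genes. The genes were put into 4 classes of like size by length. The shortest, of 51 to 735 bases, held 24 of the 41 rises and 12 of the 48 falls. These 24 include the 4 small RNAs and the 6 tRNAs called above, so the count is not separate from theirs. The median change of that class was 0.19 in culture 1 and 0.34 in culture 2, above the medians of 0.03 to 0.04 and 0.10 to 0.23 in the longer classes. The part of length in these rises was not tested.

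**Figure D5:**
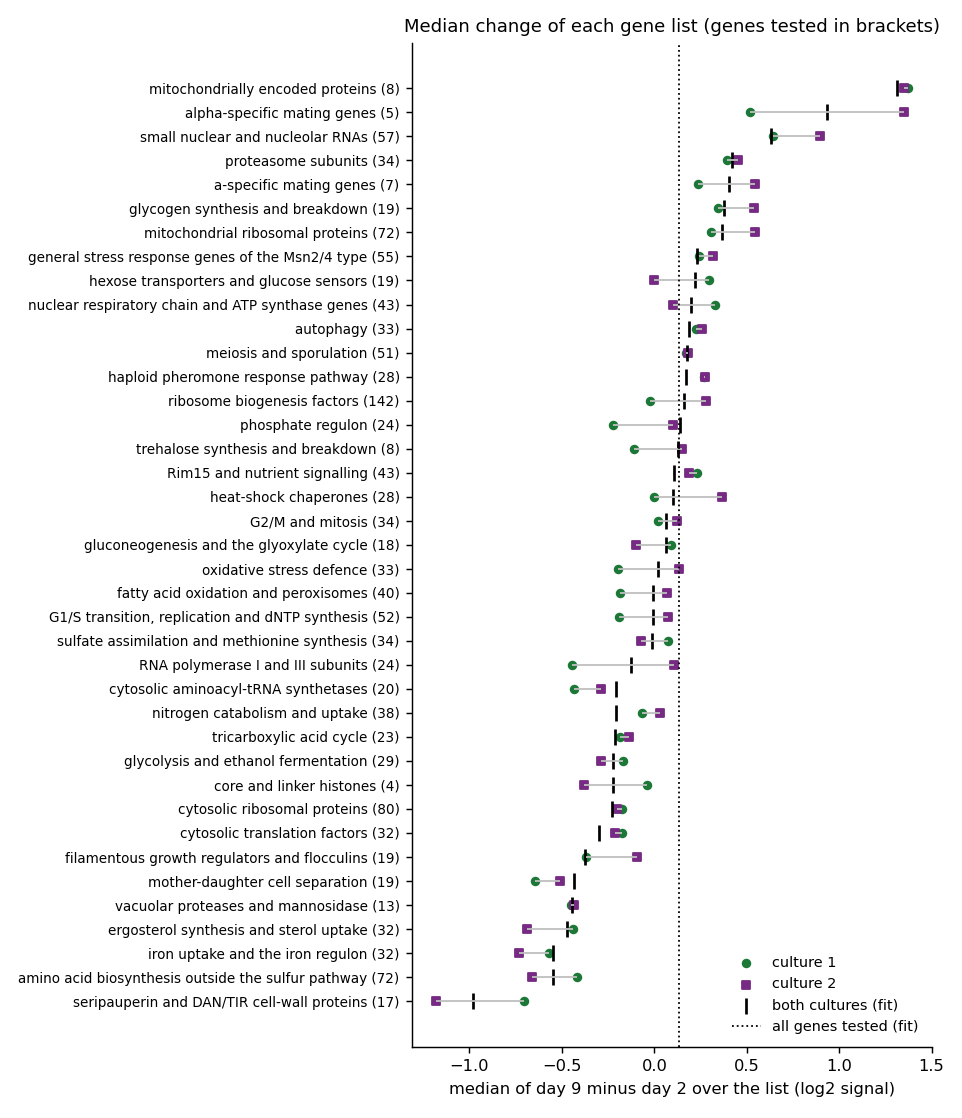
Median log2 difference, day 9 minus day 2, of each of 39 gene lists in culture 1 (green circles), in culture 2 (purple squares) and in the fit over both (black bars), with the number of genes tested in brackets and the median of all genes, 0.13, as a dotted line. Seripauperins, amino acid synthesis, iron and ergosterol lie lowest and mitochondrially encoded genes highest.

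Of the genes of protein synthesis, RPS7A and KRS1 passed, both lower. RPS7A (YOR096W), a protein of the small ribosomal subunit, fell from 1698 and 2563 to 853 and 898 (-1.25 ± 0.24, adjusted p = 0.0402). It was the only call among 80 cytosolic ribosomal protein genes (median -0.23), against 0.861% of all genes called lower. Its second probe set differed by -0.85, and the first stood at 1956 and 1774 on day 20. Of 20 tRNA synthetase genes, KRS1, for lysine, fell by 1.12 (median -0.21). In this list 12 were lower in both cultures and none higher in both, against 18.6% and 34.9% of all genes. None of 142 ribosome biogenesis genes (median 0.16), 24 RNA polymerase I and III genes (-0.13) or 32 translation factors (-0.30) passed. Less the median of all genes, the medians of the ribosomal protein, tRNA synthetase and translation factor lists were -0.36, -0.34 and -0.43. RPA135 (YPR010C), the second-largest subunit of RNA polymerase I, gave 430 and 393 and then 221 and 249 (-0.81, adjusted p = 0.0957). The 72 mitochondrial ribosomal protein genes had a median of 0.37, with 38 higher in both cultures, against 34.9% of all genes, 1 lower in both and no call.

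Carbon metabolism changed at single genes. PFK27 (YOL136C), which makes the glycolysis activator fructose 2,6-bisphosphate, fell from 109 and 90.7 to 37.5 and 30.7 (-1.55 ± 0.23, adjusted p = 0.0188), the only call among 29 genes of glycolysis and fermentation (median -0.22). MAE1 (YKL029C), malic enzyme, fell from 1421 and 901 to 552 and 190 (-1.80 ± 0.32, adjusted p = 0.0331), the only call in the gluconeogenesis and glyoxylate list (18 genes, median 0.06). POX1 (YGL205W), acyl-CoA oxidase, and TES1 (YJR019C), a peroxisomal thioesterase, fell by 1.88 and 1.34 among 40 fatty acid oxidation genes (median -0.01). The other 3 probe sets of POX1 differed by -0.92, -1.25 and -2.06. None of 23 tricarboxylic acid cycle genes passed (median -0.21). CIT3, a mitochondrial citrate and methylcitrate synthase, gave 56.6 and 53.8 and then 12.7 and 21.9 (-1.73, adjusted p = 0.0636).

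The division genes gave 1 call. PCL1 (YNL289W), a G1 cyclin that partners the kinase Pho85, fell from 266 and 234 to 116 and 95.4 (-1.25 ± 0.24, adjusted p = 0.0418), among 52 genes of the G1/S transition and replication (median -0.01). It is also the only call among 43 genes of Rim15 and nutrient signalling (median 0.11). None of 34 mitotic genes (0.06), 4 histone genes (-0.23) or 51 meiosis genes (0.18) passed. SPO12, of mitotic exit, gave 254 and 221 and then 409 and 512 (0.95, adjusted p = 0.0678). None of 34 proteasome genes passed (median 0.42), of which 21 were higher in both cultures, against 34.9% of all genes, and none of 13 vacuolar hydrolase genes passed (-0.44).

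Other lists held single calls. AHP1 (YLR109W), a thioredoxin peroxidase, fell from 883 and 799 to 369 and 151 (-1.83 ± 0.29, adjusted p = 0.0233). GRX4 (YER174C), a glutaredoxin that takes part in iron sensing, rose from 328 and 377 to 1056 and 714 (1.30 ± 0.27, adjusted p = 0.0469), and both belong to the list of 33 oxidative stress genes (median 0.02). CAR2 (YLR438W), of arginine breakdown, fell by 1.22 among 38 nitrogen genes (median -0.21). MET32, a regulator of sulfur genes, rose by 1.34 among 34 sulfur genes (median -0.01), and PHO2, a regulator of phosphate genes, rose by 1.14 among 24 phosphate genes (median 0.14). The rises of GRX4, MET32 and PHO2 lost their call with the numbering trend removed (adjusted p = 0.0654, 0.135 and 0.0686).

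The other called genes were outside the rule for naming, and the following were picked after their values were seen. Among the falls, ALD4 (YOR374W), the mitochondrial aldehyde dehydrogenase, went from 2313 and 1409 to 433 and 590 (-1.84), and TKL1 (YPR074C), transketolase, from 1189 and 1543 to 592 and 525 (-1.28). ATO2, of the acetate and ammonium transporter family, fell by 1.58, and ADH6, an alcohol dehydrogenase that uses NADPH, by 1.57. Among the rises, RAD2 (YGR258C) and RAD4 (YER162C), both of nucleotide excision repair, rose by 1.08 and 1.12, from 151 and 197 to 346 and 383 and from 75.1 and 97.2 to 170 and 204. ROM1, which activates the wall signalling protein Rho1, rose by 1.57, and GPG1, a partner of a nutrient-linked G protein, by 1.22. The calls on TKL1, RAD2, RAD4 and GPG1 did not hold with the numbering trend removed, and those on ALD4, ATO2, ADH6 and ROM1 did. RAX1 was the called gene with overlap, from 215 in culture 1 and 51.8 in culture 2 on day 2 to 104 and 5.7 on day 9. The call on RAX1 did not hold with the numbering trend removed either.

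The same fit gave 20 calls between the chemostat and day 2 (0.359%), 1 between day 9 and day 16 (0.0179%) and 0 between day 16 and day 20, where 322 genes had an unadjusted p under 0.05. Without the culture term these were 1, 0 and 0 calls. These comparisons share arrays with the one from day 2 to day 9, and whether the counts differ was not tested.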

How the data were processed

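The deposited intensity values are linear signals per probe set on 11 one-colour Affymetrix yeast arrays, made by the authors with GCOS 1.2, per the submitters' processing notes. The background and scaling settings of that step are not known here. Gene names come from the platform annotation, updated from RefSeq. No genome build is stated and no coordinates are given.

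Signals were floored at 12 and taken to log2. Each of 5656 genes was represented by its probe set of highest mean log2 signal, and 79 at the floor throughout were left out. limma 3.58.1 in R 4.3.3 (lmFit, eBayes) fitted 1 mean per group over 11 arrays plus a retentostat culture term, with 5 residual and 4.88 prior degrees of freedom, two-sided tests and Benjamini-Hochberg adjustment over 5577 genes. The pairing comes from the culture code in the labels. Deviations of same-numbered arrays from their day's mean correlated at 0.227 between days 2 and 9, the lowest value of any pair of days. Among days 9, 16 and 20, when the culture 2 arrays had the high actin 3'/5' ratio, the values were 0.498 to 0.690. Whether they reflect that ratio or the culture was not tested. The spread shared with other groups carries the test: with 2 cultures a day an exact permutation test cannot go below 0.333, or 0.5 paired.

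Errors are moderated SEs. The number of arrays limits the precision. The gene lists and the members named were chosen with earlier results of these data known. Genes were named as the 12 largest rises and falls among calls with a mean signal of at least 50 on the higher day and no overlap, up to 4 calls per list (or the 2 members of smallest p where a list had none), RIM15, and the 4 calls with the widest gap between cultures. The other genes named were picked after their values were seen. The search of promoters planned for this comparison was not run.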

Additional observations from a re-analysis of the deposited data

How the results depend on the processing

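The count of 89 genes (41 higher, 48 lower) depended on the setting. Without the replicate block it was 9 (4 and 5), with the 8 retentostat arrays alone 1 (0 and 1, FIT2), and with the 4 arrays of days 2 and 9 alone 0 (0 and 0), where 366 genes had an unadjusted p under 0.05 in limma. Array weights gave 5 (1 and 4). Without the culture 2 arrays of days 9, 16 and 20 it was 0 (0 and 0), with 1477 genes at an unadjusted p under 0.05. It rose to 175 (108 higher) with a floor of 50, to 145 (71 and 74) with log2 of signal + 16, to 212 (145 higher) with no filter on low values, and to 135 (90 lower) with the running median along the numbering removed. With every probe set tested on its own it fell to 37 (15 and 22). Quantile scaling gave 18 higher and median scaling 16, out of 63 and 87 calls, with the median of all genes at 0.04 and -0.004 in place of 0.13. Other settings (random block, minimum mean signal, mean of probe sets, trended prior) gave counts within 1.5 times of 89. With 1 array left out the count ran from 3 to 46, the rises from 1 to 18 and the falls from 2 to 28. The count without either array of day 16 or of day 20 is the same because a lone array of a day adds nothing to the spread. No named called gene changed sign in any setting: of 1423 values for the 53 of them, 679 kept their side of the threshold and 744 lost it, and MF(ALPHA)2 and SNR71 differed by 0 with a floor of 50. The medians of the iron, amino acid, ergosterol, seripauperin, mitochondrially encoded, small RNA and glycogen lists, each less the median of all genes, kept their sign in all 27 alternatives, from -0.87 to -0.52 for iron and from 0.79 to 1.60 for mitochondrially encoded genes. In many of these settings no sign could change, because each gene's difference stays as it was and only its spread is estimated anew. Among them are the fits without the block, with a random block, with 8 or 4 arrays, with array weights and with a trended prior. The fits without 1 chemostat, day 16 or day 20 array are of this kind too. Low signals, of which up to 22.9% of an array lay at the floor, limit what can be said of dim genes.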

Other observations

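Runs of genes with adjacent probe set numbers moved in opposite directions in the cultures. The run of 15 genes in number order with the widest mean gap, chosen after the values were seen, spans the numbers 5971 to 5987, all on chromosome IV. All 15 were higher on day 9 in culture 1 and 13 were lower in culture 2. In this run SPG3, needed for survival in stationary phase, differed by 1.93 and -1.48, PSP1 by 1.70 and -1.71, SAM2, an S-adenosylmethionine synthetase, by 1.39 and -1.36, and RPL27B, a ribosomal protein, by 1.59 and -1.14.

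Elsewhere on the array COS7, of a subtelomeric family, went from 610 to 1459 in culture 1 and from 650 to 68.0 in culture 2. PMA1, the proton pump, went from 2033 to 4890 and from 3405 to 938. OXA1, which inserts proteins into the inner mitochondrial membrane, went from 165 to 394 and from 354 to 76.2. Their fitted differences were -0.999, -0.297 and -0.480, each with an SE of at least 0.654, and adjusted p of 0.609, 0.862 and 0.723 in limma.

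Genes at least 2-fold lower in both cultures that missed the threshold included SUN4 (YNL066W), a wall protein of cell separation, with 595 and 488 and then 190 and 124 (adjusted p = 0.0593, limma). ZWF1 (YNL241C), glucose-6-phosphate dehydrogenase, gave 3001 and 1418 and then 1113 and 354 (adjusted p = 0.142). TKL1 was called lower, though not with the numbering trend removed. TKL2, the second form of TKL1, gave 18.5 and 34.2 and then 51.3 and 80.1 (adjusted p = 0.0530, and 0.0469 with that trend removed). PRM6 and FIG2, both induced by pheromone, were at least 2-fold higher in both cultures with differences of 1.32 and 1.21 (adjusted p = 0.0655 for each).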
